A study of Mus musculus with 8 samples.

Results

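The adhesion and homing genes described here are 33 genes that encode integrin subunits, the proteins that switch integrins on, the P-selectin ligand, hyaluronan and immunoglobulin-family adhesion receptors, chemoattractant receptors and 1 sheddase. They were taken by symbol from a fixed list, which was chosen with earlier results of these data known. The table held 1 row for each of 32 of them, and Itga1 was not analysed here. Of these 32 genes, 22 passed the filter on dim rows and were tested, out of 9920 genes tested in all. The list holds no selectin: Selplg, the P-selectin glycoprotein ligand, stands for that family.

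The study measured gene expression by microarray in granulocyte-macrophage progenitors (GMPs) carrying GFP, sorted from the bone marrow of mice that had received transplants. The cells of every array carried the MLLAF9 fusion, an oncogene that turns myeloid progenitors into leukaemia stem cells (LSCs), so the control cells were leukaemic too. The KO group was 3 arrays of genotype Pik3ca-/-, and the control group was 5 arrays of genotype WT. The labels give no age, sex, strain or time after transplant, and they do not say how Pik3ca was deleted, whether mice were pooled, or whether each array is a mouse of its own. The p-values therefore measure only the spread between these arrays, which may be technical.

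Integrins are pairs of an alpha and a beta subunit that bind matrix proteins or receptors on other cells. At rest they are bent and bind weakly. Talin and kindlin open them from inside the cell after a chemokine or growth factor signal, a step in which phosphoinositide 3-kinase (PI3K) and the small GTPase RAP1 take part. In bone marrow, CXCR4, alpha-4 beta-1 integrin and CD44 hold progenitors and leukaemia cells in place, while beta-2 integrins, selectin ligands and chemoattractant receptors serve myeloid cells as they leave and enter tissue. Pik3ca encodes p110-alpha, a catalytic subunit of PI3K.

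None of the 22 tested adhesion and homing genes passed the test between KO and WT, which does not show that they were alike. With limma across all genes and Benjamini-Hochberg adjustment, 0 of 22 members passed an adjusted p of 0.05, where 0% of all 9920 genes passed. At an unadjusted p under 0.05 there was 1 member of 22, Ccr1, against 2.84% of all genes. The KO and WT arrays were fully separated for 1 member of 22, Icam2, against 3.09% of all genes. The median KO minus WT difference over the 22 members was 0.09 on the log2 scale, with 14 above 0 and 8 below. The median over all genes was 0.04, with 56% of them above 0. Members with a difference under 0.3 in size numbered 15 of 22, as did 64.5% of all genes. The 4 members with a difference over 0.8 in size were Vcam1, Adam8, Ccr1 and Icam2, and 4.92% of all genes were as far apart.

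WT array 3 stood apart from the other 7 arrays in the table as a whole, with a mean correlation to the rest of 0.921, where the other 7 were at 0.968 to 0.972. It held the lowest value of the 8 arrays for 12 of the 22 members, where it held the lowest value for 36.5% of all genes. Its median shift from the mean of the other WT arrays was -0.47 over the members and -0.15 over all genes. Differences of the tested genes are therefore given with and without it. Without it, limma again passed 0 of 22 members, with 0% of all genes passing. At an unadjusted p under 0.05 there were 2 members, Ccr1 and Icam2, against 4.68% of all genes, and 1 member, Icam2, did not overlap, against 5.55% of all genes. The median difference over the members was then -0.0046, with 11 above 0 and 11 below. The median over all genes was 0.00018, with 50.1% of them above 0.

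**Figure D1:**
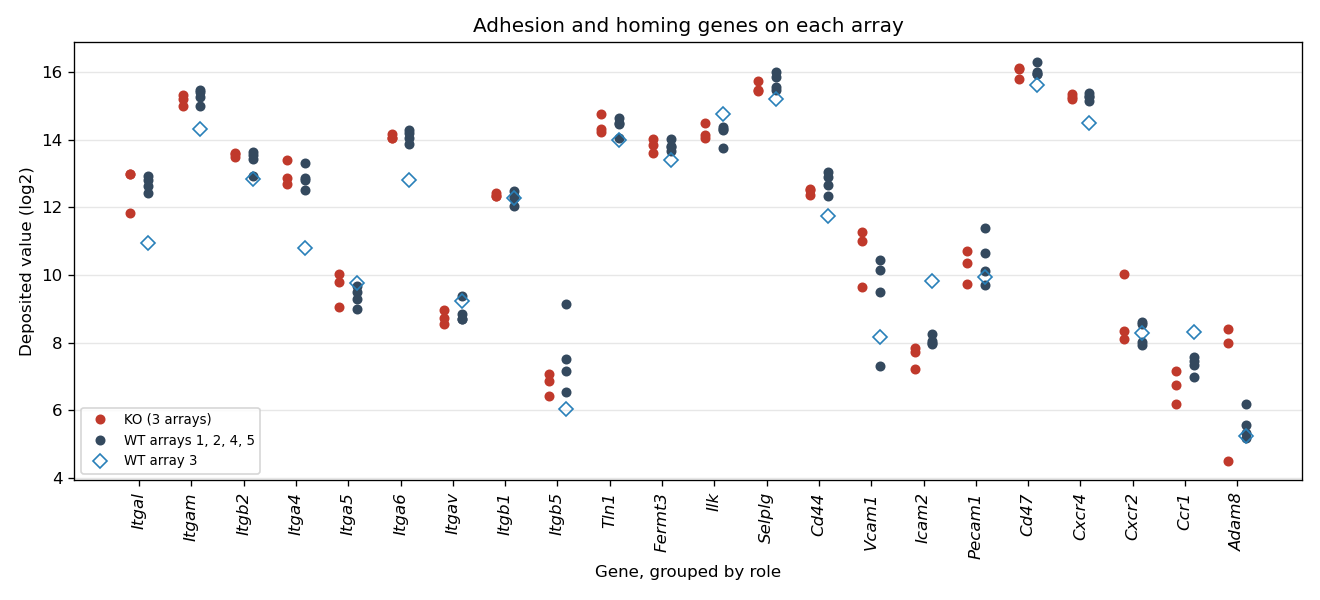
Deposited log2 values of the 22 tested adhesion and homing genes on each array, with KO arrays in red, WT arrays 1, 2, 4 and 5 in dark grey and WT array 3 as an open diamond. KO and WT arrays overlap for every gene except Icam2, and WT array 3 lies lowest for 12 genes, among them Itga4 at 10.82.

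The promoters of Adam8 and Ccr1 are shown because, among the members with an entry in the RefSeq promoter table (GRCm38.p6), these had the largest difference above and below 0. The genes and the motifs were chosen after the values were seen. Entries were found for 23 of the 33 members. Each sequence is the 250 bases before the annotated transcript start, on the strand of the gene, and capitals mark matches to 3 short motifs searched on both strands: GAGGAA, a core bound by the myeloid factor PU.1, TGTGGT, bound by RUNX factors, and GTAAACA, bound by FoxO factors, which AKT restrains downstream of PI3K.
Adam8, chr7:139992563-139992812, minus strand: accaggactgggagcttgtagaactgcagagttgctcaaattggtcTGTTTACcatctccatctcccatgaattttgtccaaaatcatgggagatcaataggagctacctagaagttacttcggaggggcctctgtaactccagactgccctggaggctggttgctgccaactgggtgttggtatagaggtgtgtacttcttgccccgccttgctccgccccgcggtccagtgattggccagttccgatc
Ccr1, chr9:123968693-123968942, minus strand: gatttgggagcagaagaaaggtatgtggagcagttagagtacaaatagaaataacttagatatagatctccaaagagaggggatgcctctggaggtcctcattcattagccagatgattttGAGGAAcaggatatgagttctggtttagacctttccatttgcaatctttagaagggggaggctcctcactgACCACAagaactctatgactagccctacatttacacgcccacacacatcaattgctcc
The Adam8 window lies inside the outer bounds of the gene in the RefSeq gene table, which reach further upstream. The Adam8 window held 1 match, to the FoxO motif on the opposite strand, and the Ccr1 window held 1 match to the PU.1 core and 1 to the RUNX motif on the opposite strand. Adam8 was the only 1 of the 23 members whose window held the FoxO motif, which is in 3.17% of all 32851 promoter windows of that length. The 23 members had 26 windows. The PU.1 core was in 10 of the 26, of 10 members, and in 23.3% of all windows. The RUNX motif was in 6 of the 26, of 5 members, and in 14.0% of all windows. The marked matches do not overlap each other. A match is a description of these letters, and binding was not measured.

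The beta-2 integrins are the main adhesion receptors of leukocytes. Itgb2, their shared beta subunit (CD18), was 13.50, 13.60 and 13.57 in KO arrays 1 to 3 and 13.54, 13.63, 12.84, 13.44 and 12.93 in WT arrays 1 to 5. The KO arrays lay close together and inside the WT range. The difference was 0.28 with a standard error of 0.24 and a 95% confidence interval from -0.27 to 0.83, and the exact two-sided permutation p was 0.25 over 56 splits. It was 0.17 with WT array 3 left out. Itgam, the alpha subunit CD11b of the complement receptor Mac-1, was 15.22, 15.31 and 15.01 in KO and 15.26, 15.43, 14.33, 15.46 and 14.99 in WT. Apart from WT array 3 every array was within a narrow band, and the difference of 0.09 turned to -0.10 without that array. Itgal, the alpha subunit CD11a of LFA-1, was 12.98, 12.98 and 11.85 in KO and 12.94, 12.42, 10.96, 12.64 and 12.81 in WT. KO array 3 and WT array 3 were the low arrays, and the difference of 0.25 turned to -0.10 without WT array 3. Itgax, the alpha subunit CD11c that marks dendritic cells, was between 3.83 and 4.55 on all arrays, below the median row of every array, and was not tested. Of the 4 beta-2 genes, 3 were therefore bright enough to test and 0 passed.

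Of the integrins that bind matrix or VCAM-1, 6 were bright enough to test and 0 passed (4 differences were positive and 2 negative). Itga4 encodes the alpha-4 subunit, which with beta-1 binds VCAM-1 and fibronectin in marrow. It was 13.40, 12.71 and 12.86 in KO and 13.33, 12.82, 10.82, 12.87 and 12.51 in WT. WT array 3 was the only low array. The difference was 0.52 with a 95% confidence interval from -0.65 to 1.69 and an exact permutation p of 0.536, and without WT array 3 it was 0.11 with an interval from -0.47 to 0.69. Its partner Itgb1, the beta-1 subunit, had the smallest SD of the tested members in both groups, at 12.43, 12.35 and 12.35 in KO and 12.28, 12.33, 12.27, 12.04 and 12.47 in WT. WT array 3 was not low for this gene. The Itgb1 difference was 0.10 with a 95% confidence interval from -0.32 to 0.51, and an exact permutation p of 0.375.

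Itga6, the laminin receptor subunit CD49f, was 14.18, 14.06 and 14.05 in KO and 14.20, 14.07, 12.82, 14.29 and 13.88 in WT. Again only WT array 3 was low, and the difference of 0.25 turned to -0.01 without it. Itga5, the fibronectin receptor subunit, was 9.79, 10.03 and 9.05 in KO and 9.50, 9.30, 9.78, 9.67 and 9.01 in WT, with overlapping groups and a difference of 0.17, or 0.25 without WT array 3. Itgav, the alpha-V subunit that binds RGD-containing ligands, was 8.98, 8.73 and 8.57 in KO and 8.69, 9.38, 9.23, 8.71 and 8.86 in WT, a difference of -0.22, or -0.15 without WT array 3. For both genes the 95% confidence interval with all arrays crossed 0, from -0.47 to 0.81 for Itga5 and from -0.75 to 0.32 for Itgav.

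Itgb5, which pairs with alpha-V in a vitronectin receptor, was 7.08, 6.88 and 6.42 in KO and 6.53, 7.18, 6.05, 9.15 and 7.52 in WT. WT array 4 was far above the rest. The difference was -0.49 with a standard error of 0.61, it was -0.80 without WT array 3, and it was -0.02 without WT array 4.

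The remaining matrix and mucosal integrin genes were dim. Itga2 (a collagen receptor subunit), Itgb4 (the hemidesmosome subunit), Itgae and Itgb7 (a pair that binds E-cadherin) and Itgb8 (an activator of latent TGF-beta, with alpha-V) were below the median row on all 8 arrays. Itga3, a laminin receptor subunit, exceeded it on 1 array, WT array 3, at 6.05 against 4.61 to 4.96 on the others. Itga9, which binds tenascin and VCAM-1, was 5.25, 6.48 and 3.74 in KO and 3.86, 4.36, 3.59, 3.48 and 4.83 in WT. KO arrays 1 and 2 were above every WT array and KO array 3 lay within the WT range. It exceeded the median row on KO array 2 only, and its difference of 1.13 had an exact permutation p of 0.161.

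The 3 intracellular partners of integrins differed by at most 0.11 in size. Tln1 encodes talin, which binds beta tails and opens the receptor. It was 14.78, 14.33 and 14.22 in KO and 14.51, 14.64, 14.00, 14.47 and 14.06 in WT. Fermt3 encodes kindlin-3, the blood cell kindlin, and was 13.85, 14.03 and 13.61 in KO and 13.83, 13.66, 13.40, 14.01 and 13.79 in WT. Ilk, the scaffold integrin-linked kinase, was 14.05, 14.14 and 14.49 in KO and 14.30, 14.33, 14.77, 13.75 and 14.38 in WT. The groups overlapped for all 3 genes. The differences were 0.11 for Tln1, 0.09 for Fermt3 and -0.08 for Ilk, with 95% confidence intervals from -0.44 to 0.65, from -0.39 to 0.57 and from -0.65 to 0.50. Without WT array 3 the differences were 0.02, 0.01 and 0.04.

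**Figure D2:**
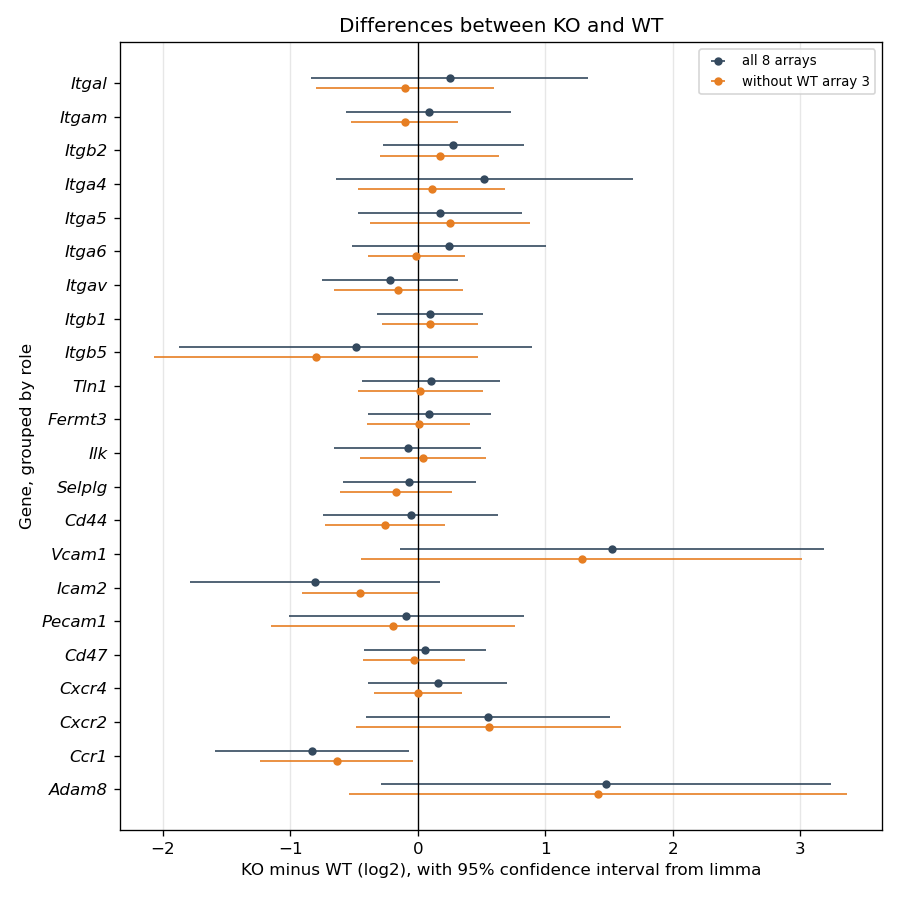
KO minus WT differences on the log2 scale for the 22 tested genes, with 95% confidence intervals from limma, for all 8 arrays (dark grey) and without WT array 3 (orange). The interval lies to 1 side of 0 for Ccr1 with all arrays, and for Ccr1 and, narrowly, Icam2 without WT array 3, before any adjustment for the number of genes.

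For rolling and hyaluronan binding, Selplg encodes PSGL-1, the ligand that lets leukocytes roll on selectins. It was 15.47, 15.74 and 15.44 in KO and 15.85, 15.56, 15.21, 15.99 and 15.48 in WT, a difference of -0.07 with a 95% confidence interval from -0.59 to 0.45. It was -0.17 without WT array 3. Cd44, the hyaluronan receptor that leukaemia stem cells use to lodge in marrow, was 12.51, 12.38 and 12.54 in KO and 12.65, 12.91, 11.73, 13.04 and 12.33 in WT. The KO arrays sat inside the WT range for both genes. The Cd44 difference was -0.06, and without WT array 3, the lowest array, it was -0.26 with an interval from -0.73 to 0.21.

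Vcam1 had the largest difference of the tested members with all arrays, while without WT array 3 that of Adam8 was larger. Vcam1 encodes the ligand of alpha-4 integrin, which is known on marrow stroma, endothelium and macrophages. Vcam1 was 11.02, 11.26 and 9.65 in KO and 10.46, 9.49, 8.18, 10.16 and 7.32 in WT. KO arrays 1 and 2 were above all WT arrays, KO array 3 was within the WT range, and WT arrays 3 and 5 were the low ones. The means were 10.65 ± 0.87 (SD, n = 3) and 9.12 ± 1.34 (SD, n = 5). The difference was 1.52 with a standard error of 0.74 and a 95% confidence interval from -0.14 to 3.19. Its adjusted p in limma was 0.998, with an exact permutation p of 0.125. It was 1.29 without WT array 3 and 1.07 without WT array 5.

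Markers of cells that could carry Vcam1 were read beside it. The macrophage genes C1qa, C1qb, C1qc and Marco were between 3.20 and 4.58 on all arrays, below every array median, and the endothelial genes Cdh5, Kdr, Tek, Emcn, Cldn5 and Plvap were between 2.76 and 4.68, equally dim. Of the 11 endothelial and stromal markers 2 passed the filter. Vwf, the von Willebrand factor of endothelium and platelets, was 5.63, 5.71 and 5.64 in KO and 6.59, 5.80, 5.11, 5.52 and 5.78 in WT. Cxcl12, the stromal chemokine, was 5.55, 5.36 and 5.55 in KO and 4.88, 5.48, 5.31, 5.61 and 5.16 in WT. The mean of both was 5.53 to 5.59 in KO and 5.21 to 5.73 in WT, so the groups overlapped. Adgre1, encoding a surface antigen of mouse macrophages, was 10.93, 10.29 and 9.64 in KO and 9.40, 9.995, 7.87, 10.75 and 10.39 in WT. The mean of the 7 tested monocyte and macrophage markers other than Vcam1 was 8.97 to 9.53 in KO and 9.11 to 9.96 in WT, with overlapping groups. Of the 8 tested markers, Vcam1 included, 3 were higher in KO, namely Vcam1, Adgre1 and the macrophage gene Mrc1, and 5 were lower. Ms4a6c was among the lower ones, with a difference of -1.14 and a limma adjusted p of 0.998. Its KO arrays all lay below the WT arrays, the only such marker of the 8, against 3.09% of all genes fully separated. The part of such cells in the Vcam1 values was not tested, and in bulk samples fewer cells of a type and less RNA per cell cannot be told apart.

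Icam2, a ligand of LFA-1 found on endothelium and leukocytes, was 7.72, 7.24 and 7.86 in KO and 8.25, 8.06, 9.81, 7.98 and 7.96 in WT. Every KO array was below every WT array, by a small step next to WT array 5 and a large one next to WT array 3. The difference was -0.81 with a standard error of 0.43 and an exact permutation p of 0.107. Without WT array 3 it was -0.46, where the exact permutation p of 0.0286 is the minimum over 35 splits, and the limma adjusted p was 0.989. After quantile normalization over the transcript rows, the KO and WT arrays of Icam2 overlapped.

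Pecam1, the CD31 receptor of endothelium, platelets and myeloid cells, was 10.36, 10.72 and 9.73 in KO and 10.64, 10.11, 9.94, 11.40 and 9.70 in WT, a difference of -0.09 with overlapping groups, or -0.20 without WT array 3. Cd47, the signal that keeps macrophages from engulfing a cell, was 16.09, 15.81 and 16.13 in KO and 15.93, 15.99, 15.61, 15.95 and 16.29 in WT, a difference of 0.06 with a 95% confidence interval from -0.42 to 0.53. It turned to -0.03 without WT array 3. F11r, the junctional molecule JAM-A, was between 3.23 and 4.26 and below the median row on all arrays.

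Of the chemoattractant receptors, Cxcr4 holds progenitors in marrow along CXCL12. It was 15.20, 15.37 and 15.27 in KO and 15.16, 15.38, 14.50, 15.30 and 15.25 in WT. Apart from WT array 3 all arrays lay between 15.16 and 15.38. The difference was 0.16, and without WT array 3 it was 0.0031 with a 95% confidence interval from -0.34 to 0.35.

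Ccr1 was the member with the smallest unadjusted p. It encodes a receptor for CCL3 and CCL5 on myeloid cells. Ccr1 was 6.19, 7.16 and 6.76 in KO and 7.45, 6.98, 8.31, 7.58 and 7.34 in WT. KO arrays 1 and 3 were below all WT arrays, and KO array 2 was above WT array 2. The means were 6.70 ± 0.48 (SD, n = 3) and 7.53 ± 0.49 (SD, n = 5), and the difference was -0.83 with a standard error of 0.33 and a 95% confidence interval from -1.59 to -0.07. The unadjusted limma p was 0.0351, the adjusted p was 0.998 and the exact permutation p was 0.0714. Without WT array 3 the difference was -0.64, with an unadjusted limma p of 0.0406 and an adjusted p of 0.989. Over the arrays left out in turn it stayed between -1.06 and -0.58.

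Cxcr2, the receptor that draws neutrophils along CXCL1 and CXCL2, was 8.12, 8.34 and 10.03 in KO and 8.61, 7.93, 8.29, 8.02 and 8.54 in WT. KO array 3 alone was high, and the difference of 0.55 was -0.05 without it and 0.56 without WT array 3. KO array 3 also had the highest Mmp8 value, 10.79 against 6.55 and 8.51 in the other KO arrays and 8.23 to 10.04 in WT. Retnlg, another neutrophil gene, was 4.65, 7.48 and 9.74 in KO and 6.69, 6.66, 10.49, 6.63 and 5.601 in WT. The mean of 10 neutrophil markers other than Cxcr2 was 13.55, 14.15 and 14.96 in KO arrays 1 to 3 and 14.00 to 14.97 in WT. WT array 3, at 14.97 for that mean, had a Cxcr2 value of 8.29. The part of maturing neutrophils in the Cxcr2 values was not tested. S1pr1, the sphingosine-1-phosphate receptor used to leave tissue, was between 2.67 and 3.03, close to the lowest values of the table, so its order between groups is not read here.

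Adam8, a membrane metalloprotease that sheds adhesion molecules from cell surfaces, was the most uneven member within KO. It was 4.52, 8.01 and 8.41 in KO and 5.18, 5.33, 5.25, 5.57 and 6.18 in WT. KO arrays 2 and 3 were above every WT array and KO array 1 was below every WT array. The KO mean was 6.98 ± 2.14 (SD, n = 3) and the WT mean 5.50 ± 0.40 (SD, n = 5). The difference was 1.48 with a standard error of 0.78 and a 95% confidence interval from -0.29 to 3.24, with an exact permutation p of 0.196. Without WT array 3 it was 1.42. Without KO array 1 it was 2.71, with a limma adjusted p of 0.365, without KO array 2 it was 0.96, and without KO array 3 it was 0.76. Adam8 exceeded the median row on 4 arrays, of which KO arrays 2 and 3 were 2, so it passed the filter partly through the arrays where it was high. KO array 1, the low array for Adam8, was also the lowest array for the mean of the 10 neutrophil markers, at 13.55. WT array 3, at 14.97 for that mean, had an Adam8 value of 5.25. The part of neutrophil maturation in the Adam8 values was not tested.

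**Figure D3:**
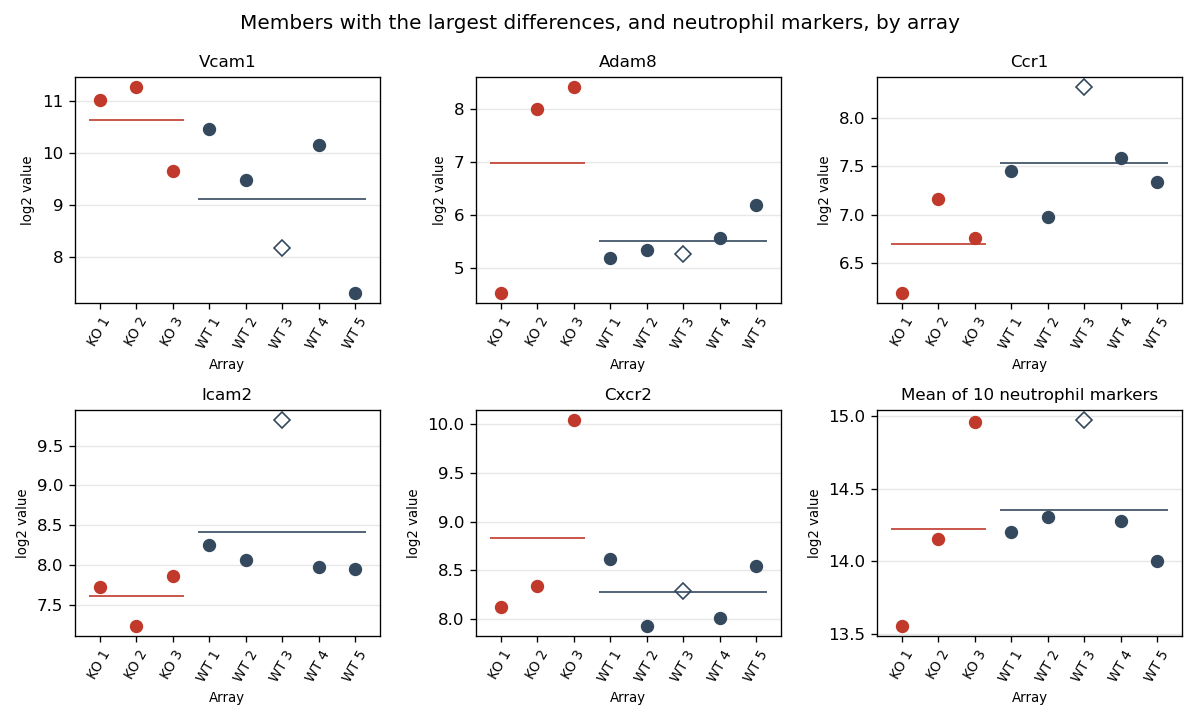
Log2 values by array for Vcam1, Adam8, Ccr1, Icam2 and Cxcr2 and for the mean of 10 neutrophil markers, with KO in red, WT in dark grey, WT array 3 as an open diamond and a line at each group mean. Adam8 is high in KO arrays 2 and 3 only, and Cxcr2 in KO array 3 only, the KO array with the highest neutrophil mean, 14.96. WT array 3 has a neutrophil mean of 14.97 and a Cxcr2 value of 8.29.

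The spread within a group differed widely between members. In KO the SD ran from 0.045 for Itgb1 to 2.14 for Adam8, and in WT from 0.16 for Itgb1 to 1.34 for Vcam1. The SD was smaller in KO than in WT for 18 of 22 members, and for 12 of 22 once WT array 3 was left out. The 95% confidence interval left room for less than a 2-fold difference either way for 12 of 22 members with all arrays and for 16 without WT array 3, against 54.8% and 72.2% of all genes. For Itga4, Itgal, Itga6, Itgb5, Vcam1, Icam2, Pecam1, Cxcr2, Ccr1 and Adam8, a 2-fold difference lay within the interval with all arrays.

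WT array 3 did not lower all adhesion genes alike. Against the mean of the other 4 WT arrays it was -2.06 for Itga4, -1.74 for Itgal, -1.55 for Itgb5, -1.29 for Itga6 and -1.18 for Vcam1. Cd44, Itgam and Cxcr4 were shifted by -0.998, -0.96 and -0.77. For Itgb1 the shift was -0.01 and for Cxcr2 0.01. Upward shifts were 1.75 for Icam2, 0.97 for Ccr1, 0.58 for Ilk, 0.41 for Itga5 and 0.32 for Itgav. On balance 16 of the 22 members were shifted down.

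**Figure D4:**
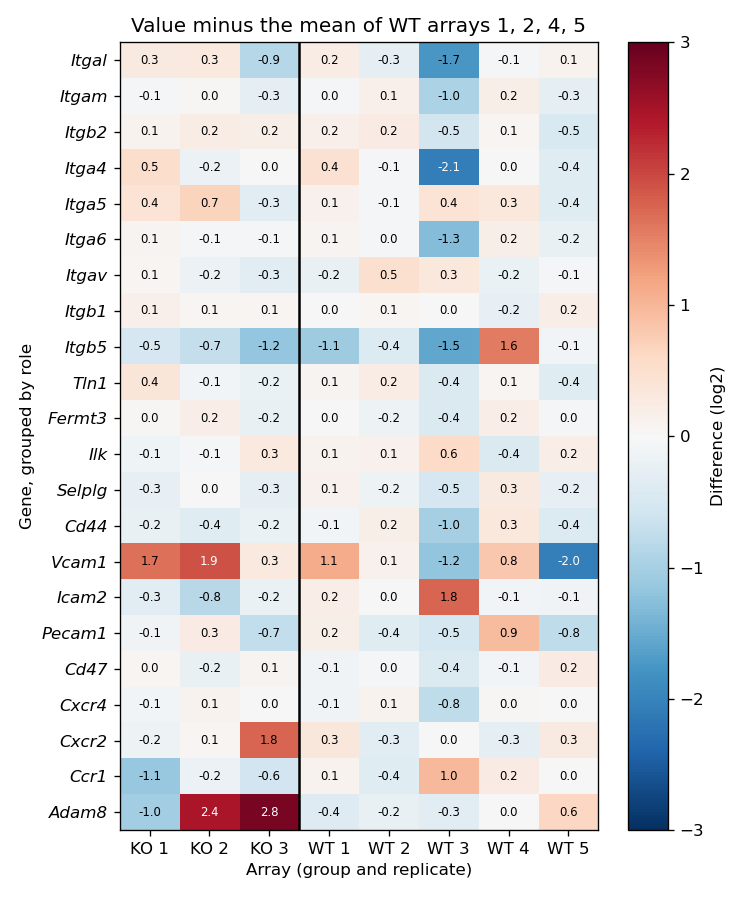
Each tested gene on each array, as its log2 value minus the mean of WT arrays 1, 2, 4 and 5, from blue (lower) to red (higher). In the column of WT array 3, Itga4 is at -2.06 and Icam2 at 1.75, and the deepest red cells are those of Adam8 in KO arrays 2 and 3.

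Other genes of the adhesion pathway did not pass either, but without WT array 3 more of them were lower than higher in KO. Of 113 further adhesion, chemotaxis and integrin signalling genes in a fixed list, 102 had a row and 73 were tested. In limma 0 passed in either direction, with 3 at an unadjusted p under 0.05 against the 2.84% of all genes given above. The KO arrays lay above every WT array for 2 of the 73 genes and below for 1, against 3.09% of all genes either way. Without WT array 3 they lay above for 2 and below for 3, against 5.55% of all genes. The median difference was 0.06 with 44 above 0 and 29 below, and without WT array 3 it was -0.10 with 28 above and 45 below. Over all genes the median was 0.04 with 56% above 0, and 0.00018 with 50.1% above 0 without WT array 3. The 6 genes of the list with the smallest unadjusted p with all arrays follow, none of which passed. Rap1a encodes a small GTPase that switches integrins on. It was 13.31, 13.39 and 13.28 in KO and 12.95, 12.91, 12.09, 12.94 and 12.40 in WT, with every KO array above every WT array, a difference of 0.67 and an exact permutation p of 0.0714. The Rap1a difference was 0.53 without WT array 3. Rap1b, its close paralogue, differed by 0.19, and by 0.07 without that array.

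Crk, an adaptor downstream of focal adhesions, differed by 0.55 and Arhgap15, a RAC-directed GTPase-activating protein, by 0.41. These differences were 0.49 and 0.36 without WT array 3. For Arhgap15 every KO array was above every WT array, by a very narrow step next to WT array 1. Zyx, the focal adhesion protein zyxin, was 11.93, 12.27 and 11.77 in KO and 12.38, 12.29, 12.39, 12.40 and 12.30 in WT. All KO arrays were below all WT arrays, the difference was -0.36 and the exact permutation p of 0.0179 is the minimum over 56 splits. The Zyx difference was -0.35 without WT array 3. The stem cell sialomucin Cd34 differed by -2.001, and by -1.50 without WT array 3, its highest array at 10.94. Without WT array 3, 4 genes of the list were at an unadjusted p under 0.05, against the 4.68% of all genes given above, and Adam9 and Pxn had the smallest. Both are named after their values were seen, and neither passed, with a limma adjusted p of 0.989. Adam9, another membrane sheddase, was 10.28, 9.90 and 9.92 in KO and 10.71, 10.90, 9.79, 10.42 and 10.70 in WT. Pxn, which encodes the focal adhesion adaptor paxillin, was 11.60, 11.89 and 11.52 in KO and 11.998, 12.16, 9.20, 12.25 and 12.30 in WT. For both genes every KO array was below the other 4 WT arrays, and WT array 3 was below every KO array. The Adam9 difference of -0.47 became -0.65 once WT array 3 was left out, and that of Pxn turned from 0.09 to -0.51.

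Itga2b, the platelet integrin alpha subunit, was 6.23, 6.33 and 6.72 in KO and 9.55, 6.62, 7.83, 7.38 and 6.51 in WT, and its partner Itgb3 was 6.35, 6.79 and 6.57 in KO and 8.84, 6.07, 7.23, 5.89 and 6.17 in WT. WT array 1 was the high array for both, as it was for the platelet chemokine gene Pf4, at 12.44 against 5.56 to 8.17 on the other arrays. The part of platelets in these values was not tested. The counterparts of other members were also read. Sirpa, the receptor of CD47, differed by 0.19, and by 0.07 without WT array 3. Icam1, a ligand of LFA-1 and Mac-1, differed by 0.32, and by 0.15 without that array. Cxcl12, the ligand of CXCR4, differed by 0.20 in both cases. Icam1 and Cxcl12 were near the array median.

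The labelled cell type was read from 13 progenitor markers, all of which were above the median row on all 8 arrays. The brightest, Mpo, Elane, Prtn3, Kit and Ms4a3, were between 15.75 and 17.89. Others were dimmer: the transcription factor gene Cebpa was between 6.79 and 7.14 and the receptor gene Csf1r between 9.72 and 11.78. Cd34, which defines the GMP gate together with Kit and Fcgr3, was as low as 5.63 on KO array 1. Some neutrophil genes were as bright, led by Ngp and S100a8. Others were not: Ltf, Mmp9 and Mmp8 lay below Mpo, Elane, Prtn3, Kit and Ms4a3 on all arrays. Array medians over all 28846 rows were 5.26 to 5.51, and the number of arrays limits the precision of every comparison.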

How the data were processed

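Expression was measured in 8 samples, 3 KO and 5 WT, grouped by the sample titles. RNA was extracted with a kit for small samples, per the labels' protocols. What the authors deposited is a table holding log2 values for 28846 rows on 8 arrays, from 1.89 to 18.6. The log base was read from that range, and folds rest on it. For software, background correction, normalization and build, "not given in the sources used here" applies.

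Of 22206 transcript rows, 19572 had 1 symbol in the platform annotation. Genes were tested whose row exceeded the array's median row on 3 or more arrays (1 row per symbol, that with the highest mean), which left 9920. KO and WT were compared with limma 3.58.1 in R 4.3.3 (lmFit and eBayes, two-sided), with Benjamini-Hochberg adjustment over these genes and a threshold of 0.05. For single genes an exact two-sided permutation test over arrays was added. The scripts were tested on simulated data. Figures used matplotlib 3.10.9 in Python 3.11.15.

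The members and lists were chosen with earlier results of these data known. All members are described. Of the pathway list, the 6 genes with the smallest unadjusted p and 7 partners of members (1 of them not reported here) were taken, and up to 2 of the brightest genes of a marker list. Other markers named, such as Mmp8, Mmp9, Ltf, Retnlg, Adgre1, Ms4a6c, Pf4, Vwf, Cebpa, Csf1r and the dim macrophage and endothelial genes, were chosen after their values were seen. So were the role groups of the members. Promoter sequences are from RefSeq (GRCm38.p6). Alternatives changed the filter, the row kept, the normalization, a floor, the moderation, array weights and the replicate block, or left out each array in turn.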

Additional observations from a re-analysis of the deposited data

Results flagged for a closer look

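The genes named above with values (Ms4a6c aside) and the mean of each gene list gave 85 values to screen in the 5 WT arrays. These were screened for single arrays lying apart, by the gap of such an array to the nearest array over the range of the group. 13 were found, 12 of them on WT array 3. For a single value chance gives about 1 in 20. The values share the same 5 arrays, and some genes, such as Pxn and Retnlg, were named after their values were seen. The count is therefore a description and cannot be set against that rate. WT array 3 was low for Itga6 at 12.82 (13.88 to 14.29 on the other WT arrays), for Itgal at 10.96 (12.42 to 12.94), for Cxcr4 at 14.50 (15.16 to 15.38) for Rap1b at 14.999 (15.50 to 15.61) and for Pxn at 9.20 (11.998 to 12.30). It was high for Icam2 at 9.81 (7.96 to 8.25), for Retnlg at 10.49 (5.601 to 6.69), and for the dim genes Itga3 at 6.05 (4.61 to 4.89), Itgb8 at 5.198 (4.04 to 4.31) and Plvap at 3.15 (2.96 to 3.01). WT array 1 was high for Csf1r at 11.78 (9.73 to 10.24). The mean of the neutrophil markers with Cxcr2 among them was high on WT array 3, at 14.36 (13.51 to 13.72). So was that of the T and NK cell markers, at 7.02 (5.44 to 5.84), of which 4 genes were tested. Of these, Cd3d and Klrb1c exceeded the median row on 3 arrays each, WT array 3 among them, so they passed the filter partly through that array. Cd4 and Cd5 exceeded it on all 8 arrays and were highest on WT array 3, at 7.72 and 8.72. Cd3e, Cd3g, Gzma and Ncr1 were not tested and lay between 2.67 and 4.06 on all arrays.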

How the results depend on the processing

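Under all 17 alternatives limma called 0 members, 0 genes of the pathway list and 0 of all genes, and likewise under the 16 tried without WT array 3. Genes at an unadjusted p under 0.05 numbered 282 with all arrays, 592 with no filter, 446 with array weights and 220 to 464 with 1 array left out. Without WT array 3 they numbered 464, and 911 with no filter. The members whose groups did not overlap numbered 1, both with all arrays and without WT array 3. In each case this became 2 with no filter (Icam2 and the dim S1pr1), 0 with quantile normalization and 1 to 4 with 1 array left out. The share of all genes that did not overlap was 3.09% with all arrays and 4.78% to 9.32% with 1 left out, and 5.55% and 9.11% to 14.9% when WT array 3 was out already. The 4 (Icam2, Itga5, Itgal and Vcam1) came without KO array 3, where 9.32% of all genes did not overlap, or 14.2% without WT array 3 too. The median over the members ran from -0.0046 to 0.17 with all arrays as the base, and from -0.083 to 0.013 without WT array 3.

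Of 22 members, 9 kept their sign under every alternative that tested them: Vcam1, Adam8 (which a stricter filter removed), Ccr1, Icam2, Itga4, Itgav, Itgb1, Itgb2 and Cxcr4. With array weights the sign turned for Itgal (-0.026), Itgam (-0.074), Ilk (0.0068) and Cd47 (-0.0096). With the replicate number as a block it turned for Itgb5 (0.21), Selplg (0.012), Cd44 (0.045) and Pecam1 (0.038). WT arrays 4 and 5 have no KO array of the same number, so they do not enter the difference in that fit. The sample titles do not say whether same-numbered arrays form pairs. The deviations of same-numbered KO and WT arrays correlated at 0.018, -0.018 and 0.14, and so few values cannot decide it. The block left 0 genes called, with 333 at an unadjusted limma p under 0.05. With 1 array left out the ranges that cross 0 were -0.061 to 0.22 for Tln1, -0.22 to 0.038 for Ilk, -0.031 to 0.46 for Itga5, -0.0086 to 0.20 for Fermt3, -0.047 to 0.91 for Cxcr2, -0.31 to 0.18 for Pecam1, -0.030 to 0.16 for Cd47, -0.26 to 0.070 for Cd44, -0.012 to 0.36 for Itga6, -0.098 to 0.63 for Itgal, -0.10 to 0.18 for Itgam and -0.17 to 0.026 for Selplg. Beyond the arrays kept or weighted in each fit, the cause of these turns was not tested. Dim members near the median row of an array carry little signal over background.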
